A study of Mus musculus with 2 samples.

Results

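S100a8 and S100a9, the genes of the calprotectin subunits, were followed through every cell cluster of the mouse esophagus in a Keap1 cKO library and a control library. Both genes were chosen by name, and both were found in the expression table, which makes them 2 of its 18595 genes. Single cells came from esophagus stripped of its muscle and were profiled with droplet 3′ RNA sequencing, in which each captured RNA molecule carries a unique molecular identifier (UMI). The Keap1 cKO mice carried K5CreERT2, a Cre recombinase that tamoxifen activates and that the keratin 5 promoter drives in basal keratinocytes, together with floxB on both copies of Keap1. The control mice carried floxB on both copies of Keap1 without the Cre, so the floxed allele was common to both groups, as was the hybrid background of C57BL/6J and BALB/c. The sources used here give neither the number, age and sex of the mice nor the tamoxifen schedule nor the part of Keap1 that floxB removes.

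Calprotectin is a heterodimer of the small calcium-binding proteins S100A8 and S100A9, which binds zinc and manganese and so limits these metals for microbes. It is a major cytosolic protein of neutrophils, and outside the cell it acts as an alarm signal through receptors such as TLR4. Squamous keratinocytes also make it, and it is best known there from inflamed and hyperproliferative skin.

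S100a8 lies on the plus strand of chromosome 3 at 90668978 to 90670035, and S100a9 on the minus strand at 90692632 to 90695721 (mm10, GENCODE vM21). The genes are 22596 bases apart, with 0 annotated genes between them and none that overlaps either, and they point toward each other. Their promoters, from 250 bases before the RefSeq start to 50 bases after it, are shown because both genes were higher in Keap1 cKO cells of clusters 4, 9, 10 and 13. The S100a8 window is chr3:90668821-90669120 and the S100a9 window, on the minus strand, is chr3:90695672-90695971 (RefSeq, GRCm38.p6). Capitals mark matches, on either strand, to TATAAA (the TATA box) and to TTNCNNAA (a C/EBP core).
S100a8 promoter: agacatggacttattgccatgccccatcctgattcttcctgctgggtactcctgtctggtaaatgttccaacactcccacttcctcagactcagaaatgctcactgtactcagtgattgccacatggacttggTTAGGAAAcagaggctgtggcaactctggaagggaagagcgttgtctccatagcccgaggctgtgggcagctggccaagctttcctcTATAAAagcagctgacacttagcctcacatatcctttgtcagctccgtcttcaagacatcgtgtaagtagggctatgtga
S100a9 promoter: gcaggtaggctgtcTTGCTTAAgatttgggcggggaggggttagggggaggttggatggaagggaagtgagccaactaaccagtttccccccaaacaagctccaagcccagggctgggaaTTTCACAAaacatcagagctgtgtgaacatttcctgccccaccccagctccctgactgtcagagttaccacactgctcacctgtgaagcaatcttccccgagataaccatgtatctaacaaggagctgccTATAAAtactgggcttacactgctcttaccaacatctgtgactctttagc
The S100a8 window held TATAAA at 30 bases before the start and 1 C/EBP match at position -117, on the opposite strand. The S100a9 window held TATAAA at position 1 from the annotated start and C/EBP matches at positions -236 and -130. Of 32851 promoter windows of the same length, 13.6% held TATAAA and 40.7% held TTNCNNAA. Neither window matched TGANTCA (AP-1), found in 7.81% of all windows, or TGACNNNGC (the core of the antioxidant response element, to which NRF2 binds), found in 12.4%. A match of letters is not a bound site, and a missing match speaks only of these 300 bases.

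In all there were 2381 Keap1 cKO cells with 26036522 UMIs (median 8193 per cell) and 2472 control cells with 30501227 UMIs (median 11293.5 per cell). Cell types and cluster numbers are the authors' own. Each genotype was a single library without replicates, and no differences were tested. Every interval below is a 95% interval of counting error alone and says nothing about differences between mice. The libraries shared 5 cell barcodes. Keap1 itself had 332 UMIs (44.5 per 1000000 UMIs, CPM) in Keap1 cKO epithelial cells and 961 UMIs (69.8 CPM) in control epithelial cells, a log2 ratio of -0.65. These 3′ tags may lie outside the deleted part of the gene. The epithelial cells of both libraries carried all 10 keratinocyte markers, at 26842 CPM in the Keap1 cKO library and 34618 CPM in the control library.

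Calprotectin RNA was abundant in Keap1 cKO keratinocytes and almost absent from control keratinocytes. S100a8 had 57468 UMIs, or 7711 CPM, in 422 Keap1 cKO epithelial cells, against 169 UMIs, or 12.3 CPM, in 848 control epithelial cells. The log2 ratio of Keap1 cKO over control was 9.29 (9.08 to 9.52), a 628-fold difference. S100a9 had 39358 UMIs, or 5281 CPM, in Keap1 cKO epithelial cells, against 175 UMIs, or 12.7 CPM, in control epithelial cells. Its log2 ratio was 8.70 (8.48 to 8.92), or 415-fold. Among 12638 genes with 20 or more UMIs in the libraries combined, 10.6% were at least 2-fold higher in Keap1 cKO epithelial cells, and S100a8 and S100a9 ranked 7 and 9 by log2 ratio. Per cell, S100a8 averaged 136 UMIs in Keap1 cKO and 0.199 in control epithelial cells, and S100a9 averaged 93.3 in Keap1 cKO and 0.206 in control epithelial cells.

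The control value rested largely on a single cell. Only 33 of the 848 control epithelial cells held any calprotectin UMI, and 265 of their 344 UMIs (77.0%) lay in 2 cells of cluster 9. The higher of the pair held 136 S100a8 and 105 S100a9 UMIs among 9433 UMIs, together with 9 of the 10 keratinocyte markers and 0 UMIs of the 10 neutrophil markers. Without that cell the log2 ratios over all epithelial cells were 11.65 for S100a8 and 10.02 for S100a9. Outside cluster 9, control epithelial cells held 30 calprotectin UMIs in all.

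The epithelial clusters differ in keratins. In the Keap1 cKO library Trp63, which encodes the basal cell factor p63, had 204 CPM in cluster 4, 86.3 CPM in cluster 13 and 22.5 CPM in cluster 9. Krt13, a keratin of the differentiating esophagus, ran from 2281 CPM in cluster 4 to 9141 in cluster 9 and 14084 in cluster 13. Calprotectin was high in all 3 of these clusters of the Keap1 cKO library. Keratins of the same cluster also differed between the libraries. In cluster 9 Krt13 had 9141 CPM in Keap1 cKO and 40523 CPM in control cells, and Krt14 had 3859 and 133 CPM. In cluster 13 Krt14 had 4908 and 369 CPM, whereas Krt5 in cluster 4 had 4478 and 4689 CPM. The part of such differences in the ratios by cluster was not tested.

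Cluster 13 held the most calprotectin per cell. S100a8 averaged 403 UMIs in each of its 61 Keap1 cKO cells, against 0.0299 UMIs in each of its 134 control cells, and S100a9 averaged 260.3 UMIs in Keap1 cKO and 0.0448 in control cells. The control cells had 4 S100a8 and 6 S100a9 UMIs in all. The log2 ratios were 13.38 (12.02 to 15.26) and 12.17 (11.04 to 13.61), and S100a8 and S100a9 ranked 1 and 2 among 9875 genes, of which 7.04% were at least 2-fold higher and 6.32% at least 2-fold lower.

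In the basal-keratin cluster 4, S100a8 had 10942 UMIs (4188 CPM) over 93 Keap1 cKO cells and 3 UMIs (0.462 CPM) over 313 control cells, a log2 ratio of 13.15 (11.60 to 15.42). S100a9 had 5415 UMIs (2072 CPM) over the Keap1 cKO cells and 0 over the control cells, which makes it at least 4488-fold higher at a floor of 3 counts over the group. They again ranked 1 and 2, here among 10956 genes with 9.94% at least 2-fold higher and 8.96% lower.

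Cluster 9 had the highest concentration among epithelial clusters. S100a8 made up 21118 CPM over 140 Keap1 cKO cells, against 361 CPM over 114 control cells, and S100a9 made up 17216 CPM in Keap1 cKO and 347 CPM in control cells. The log2 ratios of 5.87 (5.65 to 6.11) and 5.63 (5.40 to 5.87) placed the genes at ranks 11 and 16 of 4713, of which 12.3% were at least 2-fold higher. The control cell described above lies in this cluster, and without it the ratios were 8.58 and 7.25.

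Cluster 10 consisted of shallow cells, with medians of 809 UMIs in Keap1 cKO and 1178 UMIs in control cells. It had 2.51 S100a8 and 1.57 S100a9 UMIs per Keap1 cKO cell, against 0.00588 and 0 UMIs per control cell. The log2 ratio of S100a8 was 9.78 (7.28 to 15.09), S100a9 was at least 183-fold higher, and 14.1% of 2681 genes were at least 2-fold higher. Clusters 14 and 15 had too few cells for a ratio. Cluster 14 had 128 S100a8 and 281 S100a9 UMIs over 40 Keap1 cKO cells, and 0 and 14 UMIs over 42 control cells, at median depths of 27848 and 3547.5 UMIs. A single Keap1 cKO cell held 219 of these 409 calprotectin UMIs, and the median cell held 4. In cluster 15, 1 of 7 Keap1 cKO cells held 841 of 1034 S100a8 UMIs and 766 of 858 S100a9 UMIs, while its 75 control cells held 1 UMI of each gene.

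**Figure D1:**
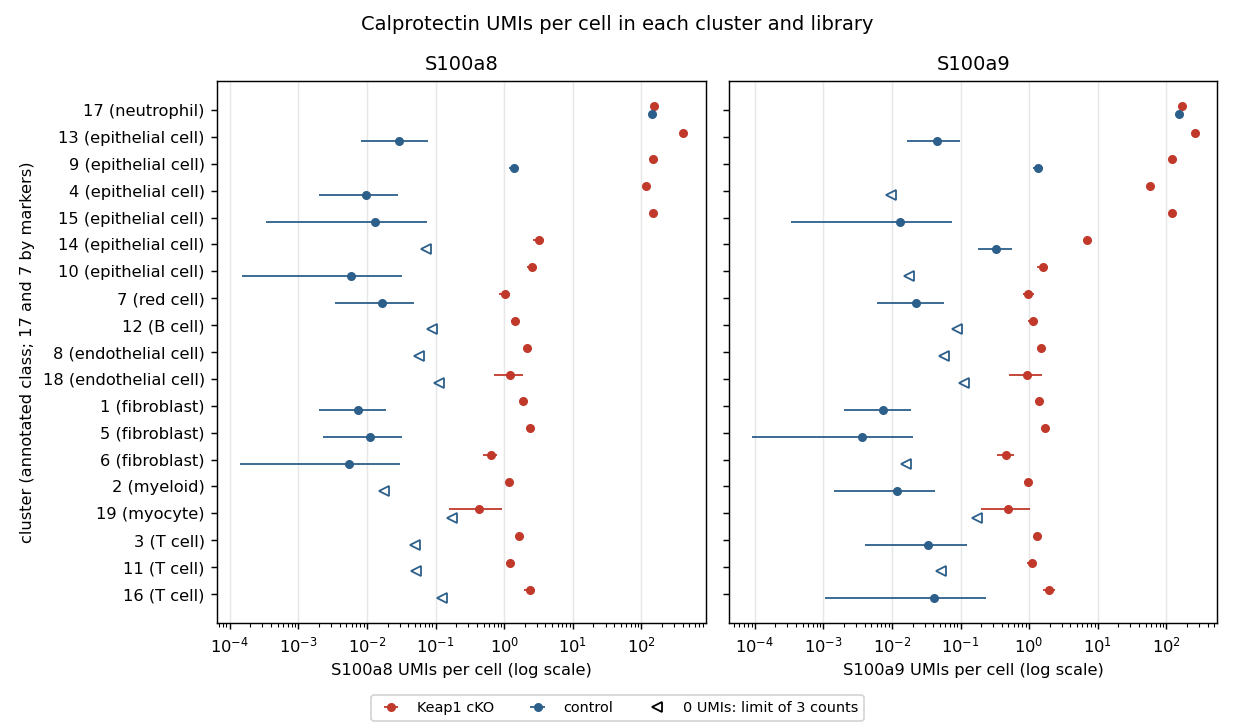
UMIs per cell of S100a8 (left) and S100a9 (right) on a log scale for each of the 19 clusters, in the Keap1 cKO library (red, upper point of each row) and the control library (blue, lower point). Bars are exact 95% Poisson intervals of counting error, and open triangles stand for 0 UMIs at the limit that 3 counts allow. In Keap1 cKO cells, clusters 13, 9, 4 and 15 lie between 58.2 and 403 UMIs per cell, around neutrophil cluster 17 at 155 and 169, and the other clusters lie between 0.429 and 7.03 UMIs per cell.

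Cluster 17, annotated as myeloid, carried all 10 neutrophil markers in the Keap1 cKO library, with 4800 UMIs or 25737 CPM, and served as the measure of a neutrophil. It held 56 cells in the Keap1 cKO library and 4 in the control library, so no ratio between libraries was taken. S100a8 reached 46456 CPM in Keap1 cKO and 24861 CPM in control cells of cluster 17, and S100a9 reached 50783 CPM in Keap1 cKO and 26773 CPM in control cells. Per cell the libraries were nearer to each other, with 155 S100a8 UMIs in Keap1 cKO and 143 in control cells, and 169 S100a9 UMIs in Keap1 cKO and 154 in control cells. The 4 control cells also carried all 10 keratinocyte markers, at 104.5 UMIs per cell against 3.27 in the 56 Keap1 cKO cells. The part of keratinocyte RNA in these 4 cells was not tested.

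Set against neutrophils of the same library, Keap1 cKO keratinocytes held less calprotectin per 1000000 UMIs, and the gap per cell was smaller. Over all epithelial cells the log2 ratio to cluster 17 was -2.59 (-2.62 to -2.56) for S100a8 and -3.27 (-3.30 to -3.23) for S100a9. Counted as UMIs per cell, the same log2 ratios were -0.18 and -0.86, from means of 136 S100a8 and 93.3 S100a9 UMIs in epithelial cells and 155 and 169 in cluster 17. The medians lay further apart, at 18 S100a8 and 7 S100a9 UMIs per epithelial cell, against 57 and 74 per cell of cluster 17. The median Keap1 cKO epithelial cell had 5072.5 UMIs in all, and the median Keap1 cKO cell of cluster 17 had 3057. Mean depths lay further apart than these medians, with 7452494 UMIs over 422 epithelial cells and 186500 UMIs over 56 cells of cluster 17. The cells of cluster 13, at a median of 43123 UMIs, held 2.60 times as many S100a8 and 1.54 times as many S100a9 UMIs per cell as those of cluster 17. In the control library the log2 ratios of epithelial cells to cluster 17 were -10.98 and -11.04. Both genes were among those from which the clusters were made, so these values describe the clusters and test nothing.

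By UMIs per cell, the order for S100a8 in the Keap1 cKO library was cluster 13, then 17, 15, 9 and 4, and then a drop to 3.20 in cluster 14. Clusters 17, 15 and 9 had 155, 148 and 147 UMIs per cell, and the interval of cluster 15 (139 to 157) overlapped both of its neighbours. The order for S100a9 was the same down to cluster 14, with overlapping intervals for clusters 15 and 9 (123 and 120.0). By CPM the order for S100a8 was 17, 9, 13, 4, 15 and 10, with no overlap of counting intervals between neighbours. For S100a9 clusters 15 and 4 changed places. These intervals leave out the spread over cells, so both orders are descriptions. In Keap1 cKO cells the variance of S100a8 was 341 times its mean in cluster 4 and 773 times in cluster 9.

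Most calprotectin RNA of the Keap1 cKO library was epithelial, and most of that of the control library was in neutrophils. Epithelial cells made up 17.7% of Keap1 cKO cells and held 83.2% of its S100a8 and 77.0% of its S100a9 UMIs. Cluster 17 held 12.5% and 18.5%. In the control library epithelial cells held 22.5% of S100a8 and 21.7% of S100a9 UMIs, and the 4 cells of cluster 17 held 76.1% and 76.5%. The libraries as wholes had 120141 calprotectin UMIs in Keap1 cKO and 1557 in control.

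**Figure D2:**
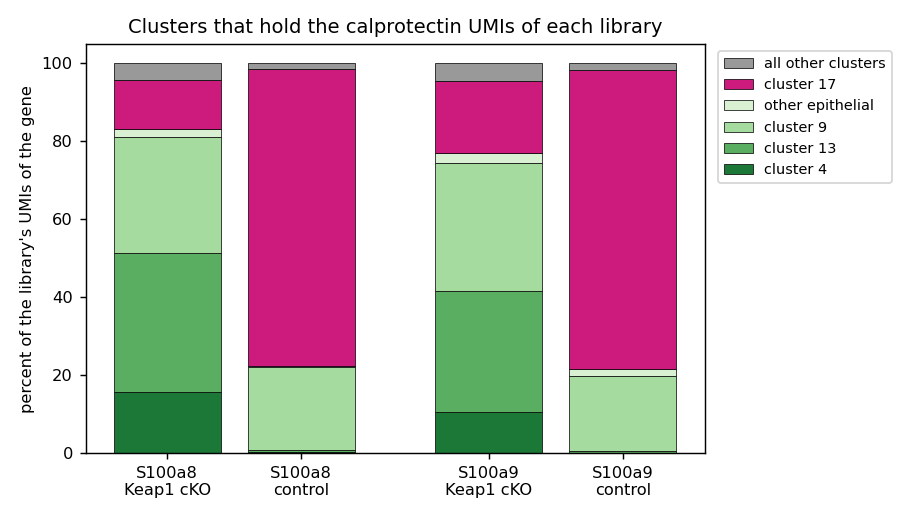
Percent of each library's S100a8 and S100a9 UMIs that lay in epithelial clusters 4, 13 and 9, in the other epithelial clusters, in neutrophil cluster 17 and in all other clusters, with the Keap1 cKO bar left of the control bar for each gene. Epithelial clusters fill 83.2% and 77.0% of the Keap1 cKO bars, and cluster 17 fills 76.1% and 76.5% of the control bars.

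Red cells, which should make no calprotectin, gave the level of free RNA. In cluster 7 of the Keap1 cKO library S100a8 averaged 1.03 UMIs (0.852 to 1.22) and S100a9 0.975 UMIs (0.806 to 1.17) over 120 cells, against 0.0169 and 0.0225 UMIs over 178 control cells. All 7 control UMIs lay in 1 cell. At median depths of 10271.5 UMIs in Keap1 cKO and 10831 UMIs in control red cells, 60.8% of Keap1 cKO red cells held an S100a8 UMI and 63.3% an S100a9 UMI, against 0.562% of control red cells for each gene. The UMIs were spread evenly: no Keap1 cKO red cell had more than 6 calprotectin UMIs, and the variance of S100a8 over cells was 1.07 times its mean.

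The 11 remaining clusters of fibroblasts, T cells, B cells, endothelial cells, myocytes and other myeloid cells lay on both sides of that level. Over 1783 Keap1 cKO cells they had between 0.429 and 2.37 S100a8 and between 0.461 and 1.98 S100a9 UMIs per cell, and over 1442 control cells 8 and 10 UMIs in all. Summed over these clusters, S100a8 had 163 CPM in Keap1 cKO and 0.541 CPM in control cells, a 301-fold difference (153 to 698). S100a9 had 125 CPM in Keap1 cKO and 0.676 CPM in control cells, a 184-fold difference (100 to 385). Over epithelial cells the same ratios were 628-fold and 415-fold. Of the 1783 Keap1 cKO cells, 5 had at least 20 calprotectin UMIs. In the T cells of cluster 3, S100a8 had 624 UMIs over 378 Keap1 cKO cells and 0 over 59 control cells, a ratio of at least 20.7-fold. S100a9 had 486 and 2 UMIs. In this cluster 11.1% of 9259 genes were at least 2-fold higher and 5.45% lower in Keap1 cKO. Among these genes S100a8, taken at its bound, ranked 5 and S100a9 ranked 2, so top ranks were not particular to keratinocytes. At 1.65 UMIs per Keap1 cKO cell (1.52 to 1.79), S100a8 in cluster 3 lay above the interval of red cells. S100a9, at 1.29 (1.17 to 1.41), lay only just above it. The part of free RNA in these values was not tested. Epithelial cluster 10 lay above the range of these 11 clusters for S100a8, with 2.51 UMIs per Keap1 cKO cell (2532 CPM). It lay inside their range for S100a9, with 1.57 (1584 CPM). Cluster 6, fibroblasts of similar depth (median 772 UMIs), had 0.635 S100a8 UMIs (489 CPM) and 0.461 S100a9 UMIs (355 CPM) per Keap1 cKO cell. The median Keap1 cKO cell of cluster 14 held 3 S100a8 and 2 S100a9 UMIs.

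Shares of cells with a UMI were read at equal depth. With every cell thinned to 500 UMIs, S100a8 was seen in 70.6% (66.0% to 74.9%) of Keap1 cKO and 0.825% (0.333% to 1.69%) of control epithelial cells, and S100a9 in 59.2% (54.4% to 64.0%) of Keap1 cKO and 0.825% of control epithelial cells. Thinned Keap1 cKO red cells gave 4.17% for S100a8 and 6.67% for S100a9. Unthinned, the epithelial shares were 90.3% and 87.7% in Keap1 cKO cells and 1.77% and 2.71% in control cells, at median depths of 5072.5 and 17667 UMIs. Thinned Keap1 cKO cells held S100a8 in 91.4% of cluster 9, 86.9% of cluster 13, 70.4% of cluster 10 and 59.1% of cluster 4, against 91.1% of cluster 17 and 23.5% of fibroblast cluster 6. No thinned control cell of clusters 4 (0 of 313) or 13 (0 of 134) held S100a8, and 5.26% of control cells of cluster 9 did.

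Keratinocytes of the Keap1 cKO library ranged over more than 3 orders of magnitude in calprotectin. The median cell held 25 UMIs of both genes together, 10% of cells at most 1 and the highest cell 4762. The highest 10% of cells held 58.7% of the S100a8 and 65.7% of the S100a9 UMIs. As a share of a cell's own UMIs, calprotectin had a median of 0.424% in the cells of cluster 4, 1.46% in those of cluster 13, 3.0% in cluster 9 and 5.28% in the neutrophils of cluster 17. It passed 10% in 21 of 140 cells of cluster 9 and in 22 of 56 cells of cluster 17, with maxima of 23.2% and 29.9%. It passed 1% in 80.3% of the cells of cluster 13, 73.6% of cluster 9, 22.6% of cluster 4 and 80.4% of cluster 17. In cluster 4 the cells were widely spread, with 10% of them at or below 0.0102% and 10% at or above 1.48%. In the control library 1 of 848 epithelial cells passed 1%.

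**Figure D3:**
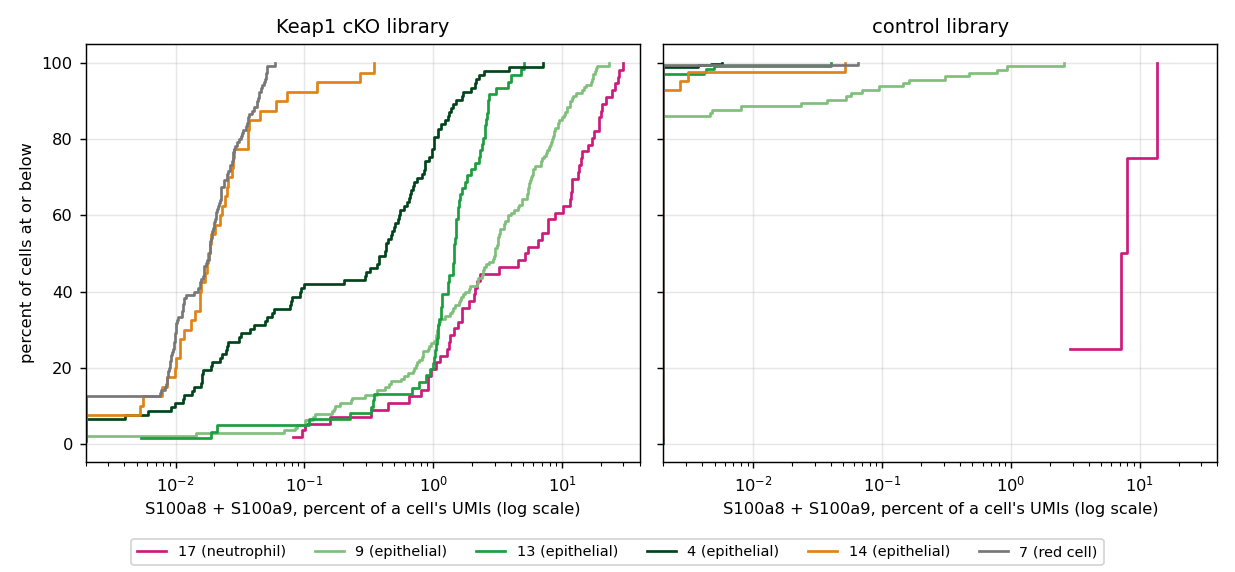
Cumulative percent of cells (vertical) against the summed S100a8 and S100a9 UMIs as a percent of each cell's UMIs (horizontal, log scale), for the Keap1 cKO library (left) and the control library (right), in neutrophil cluster 17, epithelial clusters 9, 13, 4 and 14 and red cell cluster 7. Cells at 0 are drawn at the left edge. Keap1 cKO cells of clusters 9 and 13 have medians of 3.0% and 1.46%, below the median of cluster 17 at 5.28%. The highest cell of cluster 13, at 5.11%, also lies below that median. Cluster 4 runs from the red cell range upward, and cluster 14 follows the red cells up to its few highest cells.

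In clusters 4, 9, 13 and 17 the genes went together from cell to cell. Over cells of the Keap1 cKO library, Spearman's rho between the log values of S100a8 and S100a9 was 0.87 in cluster 4 (93 cells), 0.92 in cluster 9 (140 cells), 0.70 in cluster 13 (61 cells) and 0.90 in cluster 17 (56 cells), and 0.04 in red cells (120 cells). It was 0.20 in the shallow cells of cluster 10 (81 cells) and 0.23 in cluster 14 (40 cells). Thinning all 422 epithelial cells to 500 UMIs left 0.779. Cells of 1 library share its free RNA and are not replicates, so these values carry no p-value.

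The balance of the subunits differed between clusters. S100a8 made up 66.9% (66.2% to 67.6%) of calprotectin UMIs in Keap1 cKO cells of cluster 4, and 60.7% (60.3% to 61.2%) in cluster 13, 55.1% (54.6% to 55.6%) in cluster 9 and 47.8% (47.0% to 48.5%) in cluster 17. Neutrophils of the control library were at 48.1% (45.3% to 51.0%). In ratio terms, each S100a9 UMI was matched by 2.02 S100a8 UMIs in cluster 4, by 1.55 in cluster 13, by 1.23 in cluster 9 and by 0.915 in cluster 17. The order of clusters 4, 13, 9 and 17 was the same as a mean over cells with at least 10 calprotectin UMIs, at 70.6%, 62.6%, 59.6% and 51.2%, with standard deviations over cells of 12.1, 12.1, 15.1 and 18.5 percentage points. The difference between neighbouring clusters was therefore smaller than the spread over cells. All epithelial cells together were at 59.4% in the Keap1 cKO library, and the 344 UMIs of control epithelial cells were at 49.1% (43.7% to 54.5%).

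Cells outside the epithelium and cluster 17 lay between these values. Red cells of the Keap1 cKO library had an S100a8 share of 51.2% (44.7% to 57.7%), the 8 other non-epithelial clusters with at least 200 calprotectin UMIs had 52.5% to 59.5%, and the library as a whole had 57.5%. Cluster 10 was at 61.5% (56.0% to 66.8%). Cluster 14 was at 31.3% (26.8% to 36.0%), but without the cell that held 219 of its UMIs, 193 of them S100a9, it was at 53.7%.

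**Figure D4:**
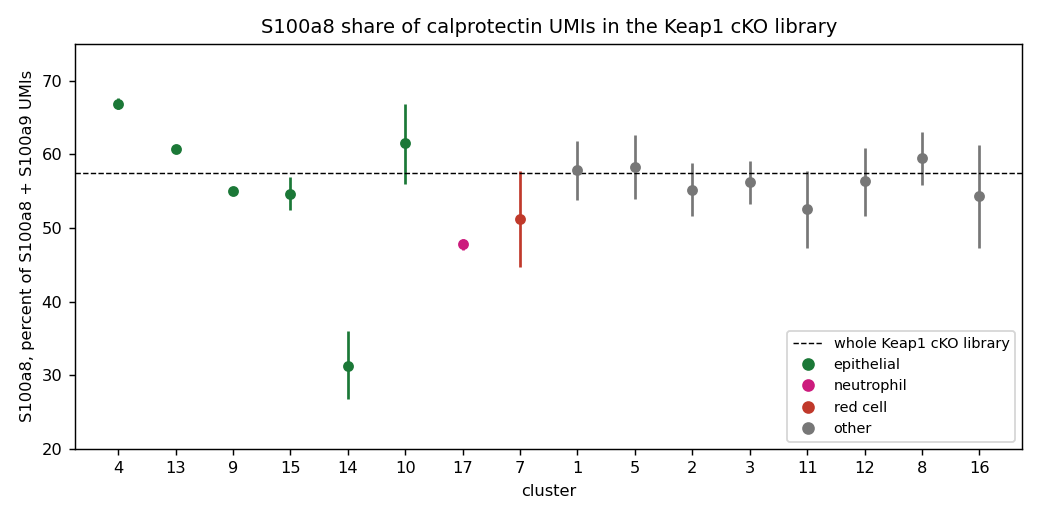
S100a8 as a percent of S100a8 and S100a9 UMIs in 16 clusters of the Keap1 cKO library (clusters with under 200 calprotectin UMIs are not drawn), with exact 95% Clopper-Pearson intervals. Green points are epithelial clusters, the magenta point is neutrophil cluster 17, the red point is red cell cluster 7, and the dashed line is the whole library at 57.5%. Cluster 4 lies highest at 66.9%, cluster 17 lies at 47.8%, and the low point of cluster 14 rests on 1 cell.

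Neutrophil markers were sparse in the keratinocytes that held calprotectin. The 10 markers (Retnlg, Csf3r, Cxcr2, Mmp8, Mmp9, Trem1, Hdc, Ly6g, Stfa2l1 and Cxcl2) summed to 155 UMIs, or 20.8 CPM, in Keap1 cKO epithelial cells and to 94 UMIs, or 6.83 CPM, in control epithelial cells, against 25737 CPM in Keap1 cKO cells of cluster 17. Of the 10, 8 were seen in Keap1 cKO epithelial cells, with Mmp8 and Stfa2l1 at 0, and 6 in control epithelial cells. In cluster 9, which had 37407 calprotectin UMIs in the Keap1 cKO library, the markers had 4 UMIs in Keap1 cKO and 0 in control cells. In cluster 13 they had 77 UMIs in Keap1 cKO and 15 in control cells, of which 66 and 13 were Cxcl2, a chemokine that other cells also make. In 0 epithelial cells of either library did more neutrophil than keratinocyte markers appear.

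Most other S100 genes differed less than 2-fold between the libraries. The S100 family sits largely in 1 cluster of genes on chromosome 3, and of 15 other genes on the list (14 S100 genes and S100pbp, which encodes an S100P-binding protein), 12 had at least 20 UMIs in epithelial cells. Of these 12, 1 was at least 2-fold higher in Keap1 cKO cells (10.6% of all genes) and 0 were at least 2-fold lower (6.87%), with a median log2 ratio of -0.01, against -0.02 over all genes. Without cluster 14, 1 of 12 was at least 2-fold higher (9.2% of genes) and 1 at least 2-fold lower (9.12%), S100a10 at -1.025. A count of 1 in 12 is near the background share and is no result about the family. The higher gene was S100a7a, the neighbour of S100a8 among the family members and a relative of human psoriasin, with 127 UMIs in Keap1 cKO and 41 in control epithelial cells and a log2 ratio of 2.52 (2.0 to 3.06). In Keap1 cKO cells it lay mostly in cluster 9, with 118 UMIs, against 9 in control cells of that cluster. Without cluster 14 it had 123 UMIs in Keap1 cKO and 14 in control epithelial cells, at 4.17 (3.37 to 5.08).

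Other S100 genes were strongly expressed in both libraries. S100a6 (calcyclin) had 3658 CPM in Keap1 cKO and 4002 CPM in control epithelial cells, at a log2 ratio of -0.13 (-0.15 to -0.11). Without cluster 14 the log2 ratio of S100a6 was -0.66. S100a11, a substrate of the cornified envelope, had 2860 CPM in Keap1 cKO and 1888 CPM in control cells, at 0.60 (0.57 to 0.63). S100a10, the partner of annexin A2, had 811 CPM in Keap1 cKO and 1317 CPM in control cells, at -0.70 (-0.74 to -0.66). S100a14 and S100a16 had log2 ratios of -0.19 and 0.11. In cluster 9, 2 of 9 measured members were at least 2-fold higher (12.3% of genes) and 2 at least 2-fold lower (18.0%). In cluster 13, 2 of 9 were at least 2-fold higher (7.04% of genes), S100g with 18 UMIs in Keap1 cKO and 2 in control cells and S100a4 with 217 and 129.

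**Figure D5:**
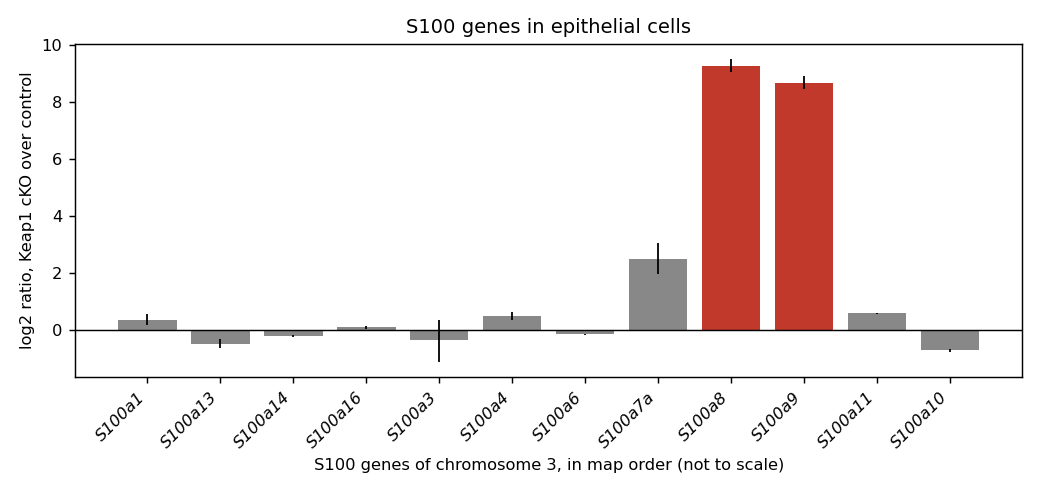
Log2 ratio of Keap1 cKO over control epithelial cells (vertical) for the measured S100 genes of chromosome 3, in map order and not to scale. Bars start at 0, thin lines are exact 95% intervals of counting error, and red marks S100a8 and S100a9. These reach 9.29 and 8.70, S100a7a reaches 2.52, and the other 9 genes lie between -0.70 and 0.60.

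Receptors through which extracellular calprotectin is thought to act differed in level among themselves and in direction among clusters. Of 11 listed receptor and signal genes, 10 were measured in epithelial cells, 5 were at least 2-fold higher in Keap1 cKO cells (10.6% of all genes) and 1 lower (6.87%), with a median log2 ratio of 0.83. Without cluster 14, 4 were higher (9.2% of genes) and 1 lower (9.12%), and the median was 0.20. In cluster 4, 3 of 7 were higher (9.94% of genes), in cluster 13, 2 of 6 (7.04%), and in cluster 9, 0 of 3 were higher (12.3%) and 2 lower (18.0%), Bsg and Nptn. Cd14, the TLR4 co-receptor, had 49.9 CPM in Keap1 cKO and 9.88 CPM in control cells, a log2 ratio of 2.34 (2.05 to 2.63). Cluster 14, which held little calprotectin, had 312 of its 372 UMIs in Keap1 cKO and 84 of 136 in control epithelial cells. Tlr4 itself had 37 UMIs in Keap1 cKO and 25 UMIs in control cells, at 1.45 (0.68 to 2.24), and its partner Ly96 (MD-2) had 101 and 67 UMIs, at 1.48 (1.02 to 1.95). Cd36, a scavenger receptor that takes part in fatty acid uptake, was lower at -1.53 (-3.08 to -0.25), on 6 UMIs in Keap1 cKO and 32 in control cells. The abundant surface proteins Bsg (basigin) and Nptn (neuroplastin), both described as calprotectin receptors, had 325 and 55.8 CPM in Keap1 cKO and 407 and 67.9 CPM in control epithelial cells, at -0.32 and -0.28. Ager, which encodes the receptor RAGE, had 2 UMIs in Keap1 cKO and 12 in control epithelial cells and was not measured by the rule of 20 UMIs. In cluster 17 of the Keap1 cKO library Cd14 had 421 UMIs and Tlr4 had 13.

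Of 11 transcriptional regulators linked to calprotectin or to NRF2, 10 were measured, 4 were at least 2-fold higher in Keap1 cKO epithelial cells (10.6% of all genes) and 0 lower (6.87%), with a median log2 ratio of 0.39. Without cluster 14, 2 were higher (9.2% of genes). In cluster 4, 0 of 8 were higher (9.94%), with Cebpb at -0.43 and Junb at -0.51, and 1 of 7 was higher in cluster 9 (12.3%) and 2 of 9 in cluster 13 (7.04%). Cebpd, a C/EBP factor of the acute phase, had 58.5 CPM in Keap1 cKO and 26.1 CPM in control cells, at 1.17 (0.96 to 1.37), and at 0.61 without cluster 14. Nfkbiz, which encodes IkB-zeta, a nuclear cofactor of interleukin 17 responses, had 91.5 CPM in Keap1 cKO and 44.1 CPM in control cells, at 1.05 (0.89 to 1.21), and at 0.83 without cluster 14. The others were low: Fosl1, an AP-1 subunit, had 28 UMIs in Keap1 cKO and 17 in control cells, and Spi1, the myeloid factor PU.1, had 33 and 14. Cebpb and Cebpa were at 0.34 and 0.36, Junb at -0.12 and Nfe2l2, the gene of NRF2, at 0.07. In cluster 17 of the Keap1 cKO library Cebpb had 872 and Junb 867 UMIs, and Cebpa had 4.

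The keratins of stressed epithelium were higher in the Keap1 cKO library in 3 of the calprotectin-holding clusters. All 4 listed genes were at least 2-fold higher in Keap1 cKO epithelial cells, where 10.6% of all genes were. Krt16 had 909 CPM in Keap1 cKO and 5.16 CPM in control cells, at 7.46 (7.12 to 7.82). Krt6b had 1510.2 CPM in Keap1 cKO and 37.8 CPM in control cells, at 5.32, and Krt17 and Krt6a were at 3.82 and 2.77. All 4 were at least 2-fold higher in cluster 4 (9.94% of genes), cluster 9 (12.3%) and cluster 13 (7.04%) too. Krt16 and Krt17 had 4857 and 1130 UMIs in Keap1 cKO cells of cluster 9 and 0 in its control cells. In cluster 10, 1 of 3 was at least 2-fold higher (14.1% of genes), Krt6b at 2.64, with Krt6a at 0.52 and Krt17 at -0.28. The T cells of cluster 3 also had 3 of 4 at least 2-fold higher (11.1% of genes), with a median log2 ratio of 2.30. The part of free RNA in those values was not tested.

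Of 13 listed neutrophil granule genes, 9 were in the table and 4 were measured in epithelial cells, with 3 at least 2-fold higher (10.6% of all genes) and the same count without cluster 14 (9.2%). In cluster 4, 3 of 4 were higher (9.94%), in cluster 13, 2 of 3 (7.04%), in cluster 9, 1 of 2 (12.3%), and in cluster 10, 0 of 1 (14.1%), with Anxa1 (annexin A1) at -1.57. Lcn2, the siderophore-binding protein lipocalin 2, had 157 CPM in Keap1 cKO and 0.799 CPM in control epithelial cells, at 7.62 (6.77 to 8.62). Ltf (lactoferrin) had 1197 CPM in Keap1 cKO and 558 CPM in control cells, at 1.10. Most Ltf lay in cluster 14, with 8210 of 8920 UMIs in Keap1 cKO and 7559 of 7675 in control epithelial cells, and without that cluster the log2 ratio of Ltf was 3.65. Padi4 had 41 UMIs in Keap1 cKO and 32 in control cells, at 1.24. Mmp9 had 4, Mpo 1, Prtn3 1 and Mmp8 0 UMIs in Keap1 cKO epithelial cells. Lcn2 had 419 UMIs in Keap1 cKO and 8 in control cells of cluster 4, and 343 and 0 in cluster 13. In cluster 17 of the Keap1 cKO library Lcn2 had 261 and Ltf 11 UMIs.

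The 5 genes of the phagocyte NADPH oxidase considered here, an enzyme to which calprotectin delivers arachidonic acid in neutrophils, were each at least 2-fold higher in Keap1 cKO epithelial cells (10.6% of all genes), with a median log2 ratio of 2.11. Without cluster 14, 4 of 5 were higher (9.2% of genes), with a median of 1.39. In cluster 4, 1 of 3 was higher (9.94%), with Cybb at 0.49 and Cyba at 0.82, in cluster 13, 3 of 3 were (7.04%), and in cluster 9, 0 of 1 (12.3%), with Cyba at 0.54. Cybb had 158 UMIs in Keap1 cKO and 38 in control cells, at 2.94 (2.42 to 3.49), and Cyba had 697 and 298 UMIs, at 2.11 (1.91 to 2.31). Cluster 14 held 121 of these Cybb UMIs in Keap1 cKO and 9 in control cells, and 563 of the Cyba UMIs in Keap1 cKO and 157 in control cells. Rac2 had 84 UMIs in Keap1 cKO and 35 in control cells, and Ncf1 and Ncf4 had 20 and 21 UMIs in Keap1 cKO and 17 and 12 in control cells. In the same epithelial cells T cell markers had 115 CPM in Keap1 cKO and 17.1 CPM in control cells, and macrophage markers had 39.9 and 42.3 CPM. The part of leukocyte RNA in the oxidase counts was not tested.

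Of 10 listed genes of type 17 immunity, 8 were in the table and 6 were measured. Of these, 3 were at least 2-fold higher in Keap1 cKO epithelial cells (10.6% of all genes): Il17a with 93 UMIs in Keap1 cKO and 7 in control epithelial cells, Il17f with 22 and 4, and Il1b with 24 and 3. By cluster, Il17a had 36 UMIs in Keap1 cKO and 5 in control cells of cluster 10, 28 and 2 in cluster 4, and 14 and 0 in cluster 13. In cluster 4, 1 of 4 measured type 17 genes was higher (9.94%), in cluster 9, 0 of 1 (12.3%), and in cluster 13, 0 of 3 (7.04%). Receptor genes Il17ra, Il17rc and Il1r1 were between -0.18 and 0.06. Il17a and Il17f are products of lymphocytes, and 8 of 8 T cell markers were seen among the epithelial cells, at 115 CPM in Keap1 cKO and 17.1 CPM in control cells. Macrophage markers stood at 39.9 CPM in Keap1 cKO and 42.3 CPM in control epithelial cells, with 7 of 8 and 8 of 8 seen. The part of such RNA in these results was not tested. In the T cells of cluster 3, 2 of 7 measured type 17 genes and 1 of 4 measured oxidase genes were at least 2-fold higher in Keap1 cKO (11.1% of genes).

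Likeness to calprotectin over clusters was also measured. The measure was Pearson's r of log2(CPM + 1) with the mean of S100a8 and S100a9 over 33 points, each a cluster in a library with at least 20 cells, among 12959 genes, and the points of 1 library share its free RNA. The 10 leading genes were Sprr2d (0.880), Sprr2i (0.878), Sprr1b (0.874), Krt16 (0.864), Slpi (0.838), Krt6b (0.834), Sprr2h (0.819), Slc7a11 (0.815), Uox (0.812) and Sprr2b (0.797). Small proline-rich proteins (Sprr) are cross-linked into the cornified envelope, Slpi is a secreted inhibitor of leukocyte proteases, Slc7a11 is the cystine importer and an NRF2 target, and Uox is urate oxidase. S100a8 and S100a9 themselves correlated at 0.971 over the same points. Unlike calprotectin, the Sprr genes and keratins were low in neutrophils: in the Keap1 cKO library Sprr2d had 2978 CPM in cluster 9 and 16.1 CPM in cluster 17, whereas Slpi had 8605 and 1737 CPM and Slc7a11 had 63.5 and 751 CPM.

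From cell to cell the list was different. Over the 422 Keap1 cKO epithelial cells thinned to 500 UMIs, among 511 genes seen in at least 10% of them, the 5 highest Spearman correlations with calprotectin belonged to Fabp5 (0.665), Krt6b (0.570), Krtdap (0.556), Krt6a (0.524) and Sprr1b (0.453). Fabp5 encodes the epidermal fatty acid-binding protein, and Krtdap encodes a secreted protein of differentiating keratinocytes. Krt6b and Sprr1b were on both lists.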

How the data were processed

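Esophagi without muscle were dispersed with trypsin-EDTA and libraries made with the 10x Genomics 3′ chemistry, per the labels' protocols. The submitters' processing notes name the mm10 build, Seurat 4.0.2, R 4.1.1 and Cell Ranger 6.0.1. The deposited table holds natural log values, made by the authors from each cell's UMIs scaled to 10000 plus 1, as read from the values. Undoing this gave UMI counts, and 100% of 13321499 positive values were whole within 0.01 UMIs or 0.01%, whichever was larger. Cells, cell types and cluster numbers are the authors', and no cell was removed. Doublets were not called.

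UMIs were summed over cells of a cluster or class in each library and given per 1000000 (CPM), with exact Poisson, conditional binomial or Clopper-Pearson intervals at 95%, which cover counting error only. A ratio needed at least 50 cells in each library and 20 UMIs over both, and a gene at 0 was set to 3 counts over the group and given as a bound. A 3′ UMI counts a molecule whatever the length of its gene. For shares of cells, each cell was thinned to 500 UMIs. The text names S100a8 and S100a9, members of the gene lists, the 10 genes most like them over clusters and the 5 over cells. S100a8 and S100a9, the lists and the markers were chosen with earlier results of these data known. Neighbours and locations come from GENCODE vM21 and promoters from RefSeq. A gene of the lists is not reported here and enters no count. The log2 ratios and their intervals were run on simulated Poisson sums, which hold no spread over cells, so that run cannot speak to such spread. Python 3.11.15, NumPy 2.4.6, SciPy 1.17.1 and pandas 2.3.3 were used.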

Additional observations from a re-analysis of the deposited data

How the results depend on the processing

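Of 130 alternative values for 32 results, 91 stayed within the counting interval of the main value (gene counts near the main count), 39 moved and 0 reversed. The 91 include alternatives that left out epithelial cells with more neutrophil than keratinocyte markers. Both libraries had 0 such cells, so these alternatives repeat the main values and could not move. In cluster 13, leaving out shallow cells also repeated the main log2 ratios, 13.38 for S100a8 and 12.17 for S100a9. Some alternatives were chosen after the data were seen: leaving out the control cell or the cell with the most calprotectin, UMIs per cell, and the gene lists without cluster 14. As a mean over cells of each cell's own CPM, the log2 ratio of Keap1 cKO over control was 8.36 for S100a8 and 7.98 for S100a9 in epithelial cells, 11.51 for S100a8 in cluster 13, and 6.73 and 6.39 in cluster 9. This gave no value for S100a9 in clusters 4 and 10, where the control was at 0. With equal weight to clusters 4, 9, 10 and 13 the epithelial ratios were 6.70 and 6.30. Without cluster 14 that of S100a9 was 8.96. Without the control cell with the most calprotectin the ratios were 11.65 and 10.02 in epithelial cells and 8.58 and 7.25 in cluster 9. With free RNA taken off, the lower bound of S100a9 in cluster 10 was 6.11.

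Against cluster 17 in the Keap1 cKO library, the epithelial log2 ratio of S100a8 was -2.72 with totals that leave out calprotectin, -1.89 as a mean over cells, -2.37 without cluster 14 and -0.18 as UMIs per cell. For S100a9 these were -3.39, -2.30, -3.05 and -0.86. Thinned to 2000 UMIs, 77.3% of Keap1 cKO epithelial cells had S100a8 and 70.8% had S100a9, with 158 shallower cells left out. The S100a8 share of calprotectin UMIs as a mean over cells was 63.1% in epithelial cells, 70.6% in cluster 4, 62.6% in cluster 13, 59.6% in cluster 9 and 51.2% in cluster 17. Without the cell with the most calprotectin it was 59.8% in epithelial cells, 69.9% in cluster 4, 61.5% in cluster 13, 55.7% in cluster 9 and 53.7% in cluster 14. With free RNA taken off it was 26.4% in cluster 14. With at least 100 UMIs per gene, 3 receptor, 2 regulator, 3 NADPH oxidase and 1 type 17 genes were at least 2-fold higher, since fewer genes were measured. Without cluster 14, 2 regulator genes were. For the other moved values the cause was not tested. Of the 10 genes most like calprotectin, 8 stayed on the list with points of at least 50 cells, and 8 with a pseudocount of 10. Size factors moved the median of all genes by -0.02.

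No paired analysis was possible because each genotype has 1 library. Control neutrophils (4 cells) and the few calprotectin UMIs of control keratinocytes limit the ratios, and differences between mice cannot be told apart from genotype.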

Other observations

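Within Keap1 cKO keratinocytes, calprotectin was also set beside 5 NRF2 target genes, Nqo1, Gclc, Gclm, Txnrd1 and Slc7a11, which encode quinone reduction, glutathione synthesis, thioredoxin reduction and cystine import. These genes were chosen after the data were seen. Over the 140 cells of cluster 9, Spearman's rho between calprotectin and the summed targets, each as a share of the cell's UMIs, was -0.581, and -0.522 with every cell thinned to 500 UMIs. Over the 93 cells of cluster 4 it was -0.229, and -0.297 after thinning. Over the 61 cells of cluster 13 it was 0.106 at full depth and -0.326 after thinning. Once thinned, 74 cells of cluster 9, 36 of cluster 4 and 14 of cluster 13 held a UMI of a target. Calprotectin itself went with cell depth at -0.100, 0.064 and 0.128 in clusters 9, 4 and 13. These values describe cells of 1 library.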
